A study of Mus musculus with 74 samples.

Results

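The axon guidance ligands and receptors are the 4 classical ligand and receptor systems that steer growing axons, and they were followed here while mouse fibroblasts were driven towards neural stem cells. Members are the rows whose gene symbol fits the Eph receptor, ephrin, semaphorin, plexin, Slit, Robo, netrin or Unc5 pattern. The rule found 65 of the 21241 genes in the table of the NSC-medium experiment and 64 of the 20558 genes in the table of a parallel experiment, which held no row for Epha8. The 65 genes are 14 Eph receptors, 8 ephrins, 20 semaphorins, 9 plexins, 3 Slits, 4 Robos, 3 netrins and 4 Unc5 receptors. All 65 and all 64 reached a value of 10 in at least 2 libraries and were tested.

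RNA of mouse embryonic fibroblasts (MEFs), of cells at several days of conversion and of neural stem cell lines was sequenced. The series asks how an engineered Sox17 protein, eSox17FNV, converts somatic cells to induced neural stem cells (iNSCs). In the NSC-medium experiment, Sox2-GFP MEFs carried M2rtTA and doxycycline (Dox)-inducible lentiviruses and were kept in NSC medium, a defined medium with bFGF and EGF, with Dox at days 4, 8, 12 and 18 and without it at days 24 and 30. BKM_FNV cells received Brn4, Klf4, c-Myc and eSox17FNV. K_FNV cells received Klf4 and eSox17FNV, so they lacked both Brn4 and c-Myc. BKM_Sox17 and BKM_Sox2 cells received Brn4, Klf4 and c-Myc with wild-type Sox17 or with Sox2. The established lines at passage 15 were iNSC_BKMF, made with Brn4, Klf4, c-Myc and eSox17FNV, iNSC_KF, made with Klf4 and eSox17FNV, and primary Sox2-GFP neural stem cells (NSCs). The MEFs were untransduced cells at passage 1 in MEF medium, which contains serum, so medium differs in every comparison with them, together with factors for the conversion cells and with cell type and passage for the NSCs. In the parallel experiment, Nanog-CreER, Rosa26-tdTomato, Sox2-GFP MEFs received Klf4, c-Myc and eSox17FNV. They were kept in N2B27 medium with Dox at days 4 and 8 and were then split into LIF/2i medium, a pluripotent stem cell medium, or NSC medium, with Dox at days 12 and 16 and without it at days 20 and 24. Groups held 2 libraries, except BKM_Sox17 and BKM_Sox2 at day 30 with 1 each. No label says that replicates came from separate cultures or animals, so p-values measure the spread between these libraries. That spread was estimated for each gene over all groups of a table, and not from the compared groups alone.

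Eph receptors are tyrosine kinases that bind ephrins on neighbouring cells, and the ephrin itself can signal backwards into its own cell. Semaphorins signal through plexins, and the secreted class 3 semaphorins mostly need a neuropilin as co-receptor. Slits are secreted ligands of Robo receptors, and netrins attract through Dcc and repel through Unc5 receptors. Many of these genes also act outside axons, in vessels, in mesenchyme and in the neural stem cell niche.

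The deposited values are normalised tag counts whose columns share 1 distribution, so read depth is unknown and no level is set against that of another gene. Replicates correlated at 0.9495 to 0.9608 in the NSC-medium table and 0.9366 to 0.9546 in the parallel table, on the log2 scale across genes. BKM_Sox2 day 24 replicate 1 stood apart. It correlated with its replicate at 0.0578. Read down the table, its longest non-decreasing subsequence held 18322 of 21241 values, while that of each other library held 4569 or fewer. It was left out, and counts with it kept are given beside each comparison. Neural stem cell markers summed to 117129 to 120762 in NSC and iNSC_BKMF libraries and to 74252 to 81449 in iNSC_KF libraries, against 1802 to 1932 in MEFs. In the NSC-medium experiment fibroblast markers summed to 122677 to 266433 in the libraries of days 24 and 30, against 204657 to 208434 in MEFs and 415 to 873 in the NSC and iNSC lines. In such bulk samples, fewer cells of a type and less RNA per cell cannot be told apart.

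Of the 65 members, 27 were higher and 26 lower in NSCs than in MEFs. Called members are those with an adjusted p below 0.05 and a change of at least 2-fold on the log2(value + 2) scale, which all fold changes given here use. Of the 20760 genes tested 34.4% were called by that rule, 17.7% as higher and 16.7% as lower. Among the 34 ligands 13 were higher and 15 lower, and among the 31 receptors 14 were higher and 11 lower. With the doubted library kept in the fit, 17 members were called higher and 20 lower, and 23.3% of all genes were called. The 16 members that then lost their call were Efna3, Efnb1, Efnb3, Epha3, Epha7, Ephb3, Ephb4, Plxna2, Plxna3, Plxnd1, Robo3, Robo4, Sema5a, Sema6b, Slit1 and Unc5a.

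**Figure D1:**
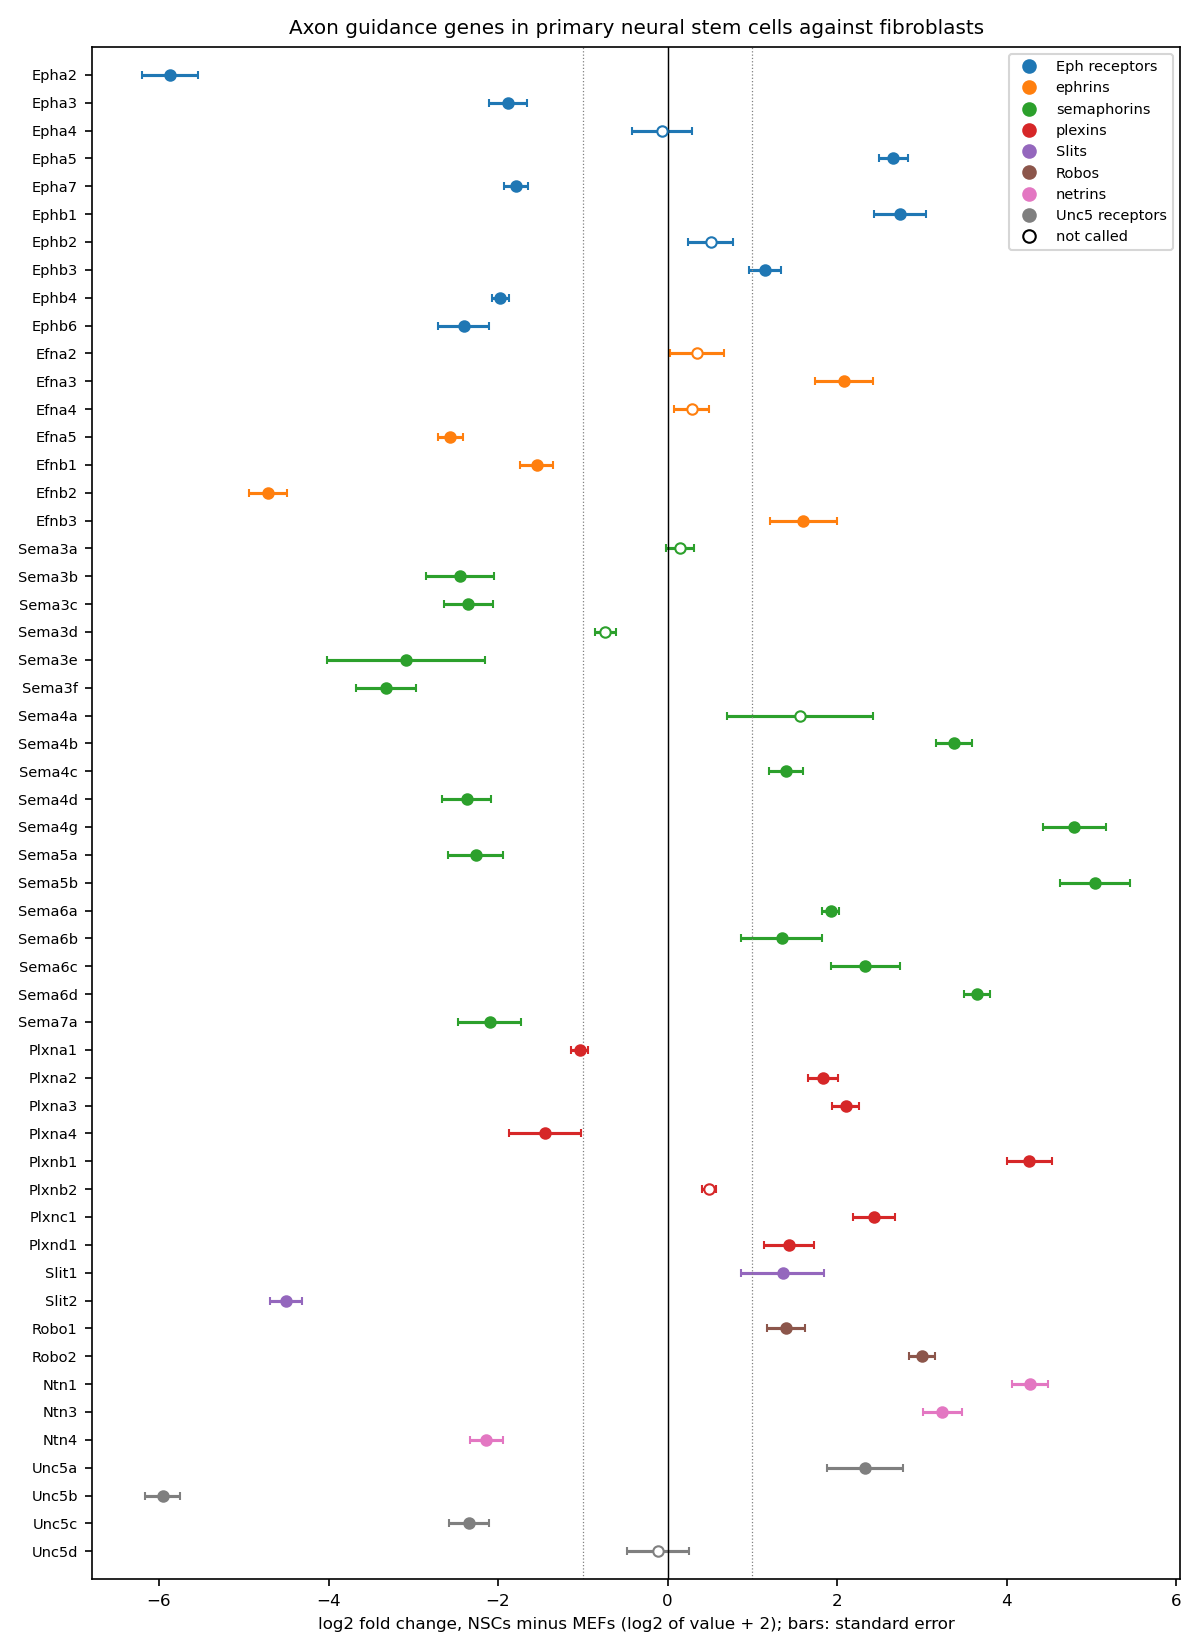
Log2 fold change of 54 members between NSCs and MEFs, by family, with the standard error of the fit. Filled points are called members, open points are not called, and dotted lines mark a 2-fold change. The 11 members listed at 0 in both libraries of either group are left out.

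Plexins and semaphorins differed in both directions between the 2 cell types. Plxnb3, a receptor for the class 5 semaphorin Sema5a, had 1605 and 2545 in NSCs and was listed at 0 in both MEF libraries (adjusted p = 5.45e-17). It was present in the induced lines too, with 2955 and 3087 in iNSC_BKMF and 4388 and 1169 in iNSC_KF. In the conversion courses its group means never exceeded 24.0, at day 8 of K_FNV, and stood at 0 in BKM_FNV at days 24 and 30. The gene spans chrX:73756556-73772510 in GRCm38.p6, the assembly behind mm10. The 250 bases before 1 annotated start of Plxnb3, chrX:73756853-73757102 on the plus strand, are shown because the gene separates the established lines from all other groups. Capitals mark matches to the Sox motifs ACAAAG and ACAATG on either strand.
Plxnb3: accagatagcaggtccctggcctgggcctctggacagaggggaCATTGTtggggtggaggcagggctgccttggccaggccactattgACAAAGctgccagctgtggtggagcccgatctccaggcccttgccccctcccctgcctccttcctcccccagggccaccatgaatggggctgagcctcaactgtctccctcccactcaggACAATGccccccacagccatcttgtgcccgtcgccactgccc

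RefSeq promoter windows of the same length were matched by symbol for 56 of the 65 members, which have 72 windows. A Sox motif was present in 16.7% of these windows, against 25.2% of all 32851 windows. The Klf motif GGGNGTGG was present in 31.9% of the members' windows, against 15.9% of all, and the octamer ATGCAAAT in 0 of the 72, against 1.6% of all. The members' windows held a median of 15.5 CpG dinucleotides, against 6 in all windows. Both strands were searched, and none of the 4 motifs contains another. These are letters in a window and not binding sites.

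Plxnb1, the receptor for Sema4d, had 4213 and 5366 in NSCs, against 225 and 266 in MEFs, and was higher by 4.27 ± 0.27 (log2, standard error; adjusted p = 3.83e-14). Plxnc1, the receptor for Sema7a, had 957 and 1076 in NSCs, against 188 and 184 in MEFs, a difference of 2.44 ± 0.25 (adjusted p = 1.47e-09). While these receptors were higher in NSCs, both ligands were lower there. Sema4d had 4 and 3 in NSCs, against 30 and 23 in MEFs, and fell by 2.37 on the log2 scale (standard error 0.29, adjusted p = 4.29e-08). Sema7a, a lipid-anchored semaphorin, had 20 and 16 in NSCs, against 90 and 77 in MEFs (-2.10 ± 0.37, adjusted p = 1.51e-05). Plxna3, Plxna2 and Plxnd1 were also higher in NSCs, with means of 1484.5, 2124 and 1140, against 344, 593.5 and 419.5 in MEFs. Plxna1 and Plxna4, which pair with neuropilins as receptors for class 3 semaphorins, were lower, with 2454.5 and 87.5 in NSCs, against 5042 and 241 in MEFs. Plxna1 was no longer called without NSC replicate 2. Plxnb2 was not called, at 7626 in NSCs and 5448.5 in MEFs.

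Transmembrane semaphorins made up the called increases. Sema5b had 1691 and 1736 in NSCs, against 49 and 51 in MEFs (5.04 ± 0.42, adjusted p = 1.88e-11). Sema4g had 397 and 777 in NSCs, against 18 and 18 in MEFs (4.80 ± 0.37, adjusted p = 4.73e-12). Sema6d, a ligand of Plxna1 in heart and brain development, had 3470 and 3278 in NSCs, against 261 and 271 in MEFs (3.65 ± 0.15, adjusted p = 6.45e-18). Sema4b, Sema4c, Sema6a, Sema6b and Sema6c were higher too, by 1.35 to 3.38, and every one of the 8 belongs to class 4, 5 or 6. Sema6b was not called without MEF replicate 2 or without either NSC replicate. The called decreases included the secreted Sema3b, Sema3c, Sema3e and Sema3f. Sema3f, a repellent that acts through neuropilin-2, had 65 and 54 in NSCs, against 611 and 607 in MEFs (-3.32 ± 0.35, adjusted p = 3.25e-09). Sema3e, the ligand of Plxnd1, had 197 and 197 in NSCs, against 1596 and 1784 in MEFs (-3.09 ± 0.94, adjusted p = 0.00573). Sema4f was listed at 0 in both NSC libraries, against 20 and 15 in MEFs, and Sema5a averaged 129.5 in NSCs, against 617.5 in MEFs. Sema3a, Sema3d, Sema3g and Sema4a were not called. Sema4a had 0 and 33 in NSCs, against 2 and 0 in MEFs, and Sema3d averaged 693.5 in NSCs, against 1153.5 in MEFs (-0.73 ± 0.13, adjusted p = 1.05e-05), which is below the 2-fold threshold.

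Slit2 and Slit3 fell, and 3 of the 4 Robos rose. Slit3 was listed at 0 in both NSC libraries, against 4018 and 4178 in MEFs (adjusted p = 6.95e-20). Slit2 had 251 and 302 in NSCs, against 6068 and 6510 in MEFs, and fell by 4.50 (standard error 0.19, adjusted p = 5.01e-18). Both are secreted repellents. Robo2 had 2208 and 2436 in NSCs, against 282 and 294 in MEFs (3.00 ± 0.15, adjusted p = 5.52e-16), and Robo1 averaged 1143.5 in NSCs, against 435 in MEFs (1.39 ± 0.22, adjusted p = 4.22e-06). Slit1, Robo3 and Robo4 were called at small means of 16.5, 0 and 6 in NSCs, against 6.5, 2.5 and 0 in MEFs. All 3 calls were lost with a pseudocount of 8, and those of Slit1 and Robo3 also without single libraries. Slit1 was not called without MEF replicate 1 or either NSC replicate, and Robo3 without any 1 of the 4 libraries.

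Of the netrins 2 were higher and 1 lower, and of the Unc5 receptors 1 was higher and 2 lower. Ntn1, the secreted guidance cue of the neural tube floor plate, had 7159 and 6257 in NSCs, against 338 and 350 in MEFs (4.27 ± 0.21, adjusted p = 3.36e-16). Ntn3 had 243 and 182 in NSCs, against 16 and 26 in MEFs (3.24 ± 0.23, adjusted p = 6.44e-13). Ntn4, a basement membrane netrin, had 289 and 215 in NSCs, against 1096 and 1114 in MEFs (-2.14 ± 0.20, adjusted p = 1.59e-10). Unc5b, a netrin receptor prominent in vessels, had 139 and 127 in NSCs, against 8385 and 8385 in MEFs, and fell by 5.96 (standard error 0.21, adjusted p = 5.94e-20). Unc5c was lower as well, at 166 in NSCs and 851 in MEFs. Unc5a was higher, at 210 in NSCs and 40 in MEFs. Unc5d was not called, at 34 in NSCs and 37 in MEFs.

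Ephrins and Eph receptors held more decreases than increases, with 4 of 8 ephrins and 6 of 14 receptors lower and 2 and 4 higher. Efnb2, a transmembrane ephrin, had 89 and 74 in NSCs, against 2173 and 2189 in MEFs (-4.71 ± 0.22, adjusted p = 5.53e-17). Efna5 had 70 and 58 in NSCs, against 419 and 356 in MEFs (-2.56 ± 0.14, adjusted p = 4.63e-15). Efna1 was listed at 0 in both NSC libraries, against 30 and 28 in MEFs, and Efnb1 averaged 260.5 in NSCs, against 761.5 in MEFs. Epha2, a receptor of epithelial and mesenchymal cells, had 34 and 13 in NSCs, against 1384 and 1336 in MEFs (-5.87 ± 0.33, adjusted p = 3.95e-15). Epha1 was listed at 0 in both NSC libraries, against 175 and 150 in MEFs (adjusted p = 2.66e-15). Epha3, Epha7, Ephb4 and Ephb6 fell by 1.79 to 2.41 on the log2 scale. On the other side, Epha5 had 985 and 993 in NSCs, against 159 and 150 in MEFs (2.66 ± 0.17, adjusted p = 6.11e-14). Ephb1 had 111 and 122 in NSCs, against 22 and 11 in MEFs (2.74 ± 0.30, adjusted p = 7.29e-09). Epha10, Ephb3, Efna3 and Efnb3 were higher as well, with means of 19, 1625.5, 157 and 29 in NSCs, against 0, 720.5, 36 and 8.5 in MEFs. Ephb3 was not called without NSC replicate 2. Epha4, Ephb2, Efna2 and Efna4 were not called, and Epha6 and Epha8 were listed at 0 in both cell types.

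Among the other 45 genes listed for these pathways, 15 were higher and 16 lower in NSCs than in MEFs. Draxin, a secreted antagonist of netrin signalling, averaged 2030.5 in NSCs and 19.5 in MEFs (6.50 ± 0.52, adjusted p = 8.29e-12). The collapsin response mediator Dpysl5 averaged 324.5 in NSCs and 3.5 in MEFs (6.26 ± 0.39, adjusted p = 3.8e-14). Dscam, a receptor that can bind netrin, averaged 1018 in NSCs and 39 in MEFs (4.64 ± 0.93, adjusted p = 8.61e-05). Mical1, an enzyme that acts below plexins on actin, was listed at 0 in NSCs, against 694 in MEFs. Met and Fes, kinases that associate with plexins, averaged 14.5 and 2 in NSCs, against 1268 and 112 in MEFs.

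The iNSC_BKMF line and the primary NSCs differed in few members. Only 2 of the 65 were called higher and 2 lower in iNSC_BKMF than in NSCs, where 2.02% of all genes tested were called, 1.02% as higher and 1% as lower. Epha1 had 4 and 3 in iNSC_BKMF and was listed at 0 in NSCs, and Sema3b had 7 and 7 in iNSC_BKMF, against 4 and 0 in NSCs. Epha2 had 10 and 6 in iNSC_BKMF, against 34 and 13 in NSCs. Sema3e had 218 and 0 in iNSC_BKMF, against 197 and 197 in NSCs, so its call (-3.25 ± 0.94, adjusted p = 0.0366) rests on the library at 0, and without iNSC_BKMF replicate 2 its difference was 0.145 (adjusted p = 0.988). All 4 calls were lost with the doubted library kept, where 0.44% of all genes were called. They were all lost too with these 2 groups fitted alone, where 1 other member and 0.645% of all genes were called. Epha1 was also not called without iNSC_BKMF replicate 1 or NSC replicate 1, Epha2 without iNSC_BKMF replicate 2 or NSC replicate 1, and Sema3b without either iNSC_BKMF replicate or NSC replicate 2. Without iNSC_BKMF replicate 2, and likewise without NSC replicate 1, only 1 member was called. At an unadjusted p below 0.05, 18 of the 65 members and 17.9% of all genes tested passed.

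The iNSC_KF line, made without Brn4 and c-Myc, differed in more members. Relative to NSCs 11 were higher and 5 lower, where 8.88% of all genes were called, 4.79% as higher and 4.09% as lower. The called members included 9 ligands, all higher, and 7 receptors, of which 2 were higher and 5 lower. Epha7 had 530 and 461 in iNSC_KF, against 89 and 82 in NSCs (2.50 ± 0.14, adjusted p = 8.92e-14). Ntn4 had 1058 and 975 in iNSC_KF, against 289 and 215 in NSCs (2.02 ± 0.20, adjusted p = 5.82e-09). Neither gene overlapped between the lines, which was a condition for giving values, and Ntn4 had 1096 and 1114 in MEFs. Efnb2 had 245 and 567 in iNSC_KF, against 89 and 74 in NSCs (2.17 ± 0.22, adjusted p = 1.22e-08). Efna5 had 243 and 243 in iNSC_KF, against 70 and 58 in NSCs (1.90 ± 0.14, adjusted p = 6.20e-11). The B-class receptors Ephb2, Ephb3 and Ephb4 were lower. Ephb3 had 641 and 544 in iNSC_KF, against 1340 and 1911 in NSCs (-1.44 ± 0.19, adjusted p = 1.37e-06). Ephb4, the main receptor of Efnb2 in vessels, had 170 and 188 in iNSC_KF, against 422 and 454 in NSCs (-1.28 ± 0.10, adjusted p = 1.08e-10). Ephb2 had 773 and 515 in iNSC_KF, against 1280 and 1404 in NSCs (-1.08 ± 0.27, adjusted p = 0.00306), and was not called without iNSC_KF replicate 2. Sema3f had 115 and 350, Sema5a 199 and 552 and Plxnc1 3232 and 1499 in iNSC_KF, against 65 and 54, 103 and 156, and 957 and 1076 in NSCs. These 3 calls were lost without 1 library, iNSC_KF replicate 2 for Sema3f and Sema5a, NSC replicate 1 for Sema5a also, and iNSC_KF replicate 1 for Plxnc1. Among the 9 ligands, Sema3b lost its call with a pseudocount of 8 and without iNSC_KF replicate 2 or NSC replicate 2. Robo4, among the 5 lower receptors, lost its call with a pseudocount of 8. With the doubted library kept, 3 members were called, where 3.35% of all genes were. Epha7, Ntn4, Efnb2, Efna5, Ephb2, Ephb3 and Ephb4 were not among them. With these 2 groups fitted with no others 3 members were called, and Ntn4, Efnb2, Efna5, Ephb2 and Ephb3 were not.

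Set against iNSC_BKMF in place of NSCs, iNSC_KF had 11 members higher and 8 lower, where 10.6% of all genes were called, 5.54% as higher and 5.07% as lower. The comparison uses the same iNSC_KF libraries, so its values are given beside the first and not as support for it. Epha7 and Ntn4 had 67 and 72, and 250 and 234, in iNSC_BKMF, and Efnb2 and Efna5 had 79 and 69, and 68 and 68, in that line. Ephb3 had 1903 and 1942 in iNSC_BKMF, a difference of -1.70 ± 0.19 (adjusted p = 6.37e-08), and Ephb2 had 1580 and 1801 (-1.42 ± 0.27, adjusted p = 0.000135). Plxnb1 had 3470 and 1880 in iNSC_KF, against 6994 and 7448 in iNSC_BKMF (-1.50 ± 0.27, adjusted p = 6.48e-05). Robo1 had 1548 and 3294 in iNSC_KF, against 1057 and 968 in iNSC_BKMF (1.16 ± 0.22, adjusted p = 0.000192), a call lost without iNSC_KF replicate 2. The calls of Epha3 and Ephb4 were lost without iNSC_KF replicate 1, and that of Robo4 with a pseudocount of 8. Sema3e was called higher, a call that rested on iNSC_BKMF replicate 2 and was lost without it. Keeping the doubted library left 6 members called, and 4.17% of all genes. Epha7, Ntn4, Efnb2, Efna5, Ephb3 and Ephb2 were not among them. With these 2 groups fitted alone 5 members were called, and Efnb2, Ephb2, Plxnb1 and Robo1 were not. Of the other pathway genes 5 were higher and 8 lower in iNSC_KF than in iNSC_BKMF. Draxin averaged 581 in iNSC_KF, against 4226 in iNSC_BKMF (-3.43 ± 0.52, adjusted p = 6.98e-06), and the netrin receptor Dcc averaged 92, against 374 (-2.0 ± 0.30, adjusted p = 7.74e-06). Crmp1, a mediator of semaphorin signalling, averaged 2445.5 in iNSC_KF and 451.5 in iNSC_BKMF (2.42 ± 0.36, adjusted p = 6.15e-06).

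The next comparison sets day 4 of the courses against MEFs. Over the 4 cocktails, 12 members were higher and 14 lower at day 4, where 18.1% of all genes were called, 9.79% as higher and 8.33% as lower. With each library rescaled by its median ratio to the other libraries, the split was 15 higher and 11 lower, and the median change of all genes was 0.109, against -0.015 without rescaling. Unc5b averaged 683.5 in BKM_FNV, 2499 in K_FNV, 1047 in BKM_Sox17 and 1573.5 in BKM_Sox2, against 8385 in MEFs (-2.69 ± 0.16, adjusted p = 1.10e-13). Slit3 averaged 438 in BKM_FNV, 1738.5 in K_FNV, 737.5 in BKM_Sox17 and 498 in BKM_Sox2, against 4098 in MEFs (-2.50 ± 0.30, adjusted p = 8.62e-08). Slit2, Ntn4, Unc5c, Sema3f and Plxna4 fell by 1.28 to 2.39. Among these decreases K_FNV had the highest of the 4 means for Unc5b, Slit3, Slit2, Ntn4, Unc5c, Sema3f and Plxna4. The ligands Efna3, Sema4b and Sema3b were higher in every library of every cocktail than in both MEF libraries. Efna3 averaged 232.5 in BKM_FNV, 809 in K_FNV, 186.5 in BKM_Sox17 and 435 in BKM_Sox2, against 36 in MEFs (3.23 ± 0.27, adjusted p = 7.78e-11). Sema4b averaged 597, 587, 677.5 and 1302 in the same order of cocktails, against 135.5 in MEFs (2.44 ± 0.17, adjusted p = 1.70e-12). Ephb3 and Plxnc1 were called lower by little more than 2-fold, and both calls were lost with a pseudocount of 8 and with rescaling. That of Ephb3 was also lost without BKM_Sox2 day 4 replicate 2. That of Plxnc1 was also lost without BKM_FNV day 4 replicate 2, BKM_Sox17 day 4 replicate 1 or BKM_Sox2 day 4 replicate 1. Efnb3 was not called without MEF replicate 1. Keeping the doubted library left 19 members called, and 11.3% of all genes, and Slit2, Sema3f, Plxnd1, Sema7a, Efna2, Ephb3 and Efnb3 were not.

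Of the other pathway genes 6 were higher and 8 lower at day 4 than in MEFs. Dpysl5 averaged 430.12 at day 4, against 3.5 in MEFs (6.34 ± 0.31, adjusted p = 8.46e-16), and Ngef, an exchange factor that acts below Eph receptors, 500.38, against 42 (3.49 ± 0.18, adjusted p = 4.48e-15). Nrp1, the co-receptor of class 3 semaphorins, averaged 797.38 at day 4, against 3687 in MEFs (-2.29 ± 0.13, adjusted p = 2.35e-14). Markers of other cell types moved with day 4 as well. Epithelial markers were called higher for 6 of 7 genes and summed to 2807 to 11980 in the cocktails, against 349 to 374 in MEFs with 3 to 5 genes at 0. Neuron markers were higher for 6 of 10 and summed to 4993 to 12866, against 2301 to 2433 in MEFs. Fibroblast markers were lower for 5 of 10 and summed to 74831 to 181838, against 204657 to 208434 in MEFs. Macrophage markers were lower for 4 of 5 and summed to 288 to 536, against 1479 to 1660 in MEFs. Endothelial markers were higher for 4 of 8 and lower for 2. Their part in the guidance genes was not tested.

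Sema3g had the largest difference of any member in 2 of the 3 comparisons between cocktails on Dox. This secreted class 3 semaphorin, known in endothelium, lies at chr14:31217873-31230352 in GRCm38.p6. The 250 bases before its start, chr14:31217623-31217872 on the plus strand, are shown for that reason. They hold no match to the Sox, octamer or Klf motifs searched, so no letter is in capitals.
Sema3g: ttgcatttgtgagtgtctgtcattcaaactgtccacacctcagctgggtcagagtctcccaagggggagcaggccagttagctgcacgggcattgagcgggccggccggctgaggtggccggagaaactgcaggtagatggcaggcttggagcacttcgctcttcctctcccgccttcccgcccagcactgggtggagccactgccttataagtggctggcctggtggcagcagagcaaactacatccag

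In MEFs Sema3g had 3 and 0, and in NSCs it was listed at 0. At day 4 it had 3295 and 2625 in K_FNV, 179 and 151 in BKM_FNV, 134 and 138 in BKM_Sox17, and 1 and 0 in BKM_Sox2. All 3 cocktails with a Sox17 form were above the MEFs, and BKM_Sox2 was not. At days 8, 12 and 18 the means were 3597.5, 2550 and 2240 in K_FNV, 500, 160.5 and 33 in BKM_FNV, 196, 295.5 and 244 in BKM_Sox17, and 1.5, 2.5 and 4.5 in BKM_Sox2. Over the 4 days the difference between BKM_FNV and BKM_Sox2 was 5.21 ± 0.23 (adjusted p = 8.39e-16), and that between K_FNV and BKM_FNV was 4.25 ± 0.23 (adjusted p = 7.30e-15). Between BKM_FNV and BKM_Sox17 the gene was not called (-0.49 ± 0.23, adjusted p = 0.129). By day 30 Sema3g had 22 and 43 in K_FNV, 1 and 1 in BKM_FNV and 8 in the BKM_Sox17 library. Some of the 8 endothelial markers were called between these groups over days 4 to 18. In K_FNV 3 were higher than in BKM_FNV and 5 were not called. In BKM_FNV 4 were higher than in BKM_Sox2 and 4 were not called. Against BKM_Sox17, 2 were higher in BKM_FNV, 1 was lower and 5 were not called. None of the 8 was at 0 in these groups while Dox was on, and their sums were 5549 to 7669 in K_FNV, 2473 to 3720 in BKM_FNV, 2282 to 4381 in BKM_Sox17 and 1517 to 1978 in BKM_Sox2 over days 4 to 18, against 2993 to 3353 in MEFs with 1 or 2 of the 8 at 0. Their part in the Sema3g values was not tested.

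**Figure D2:**
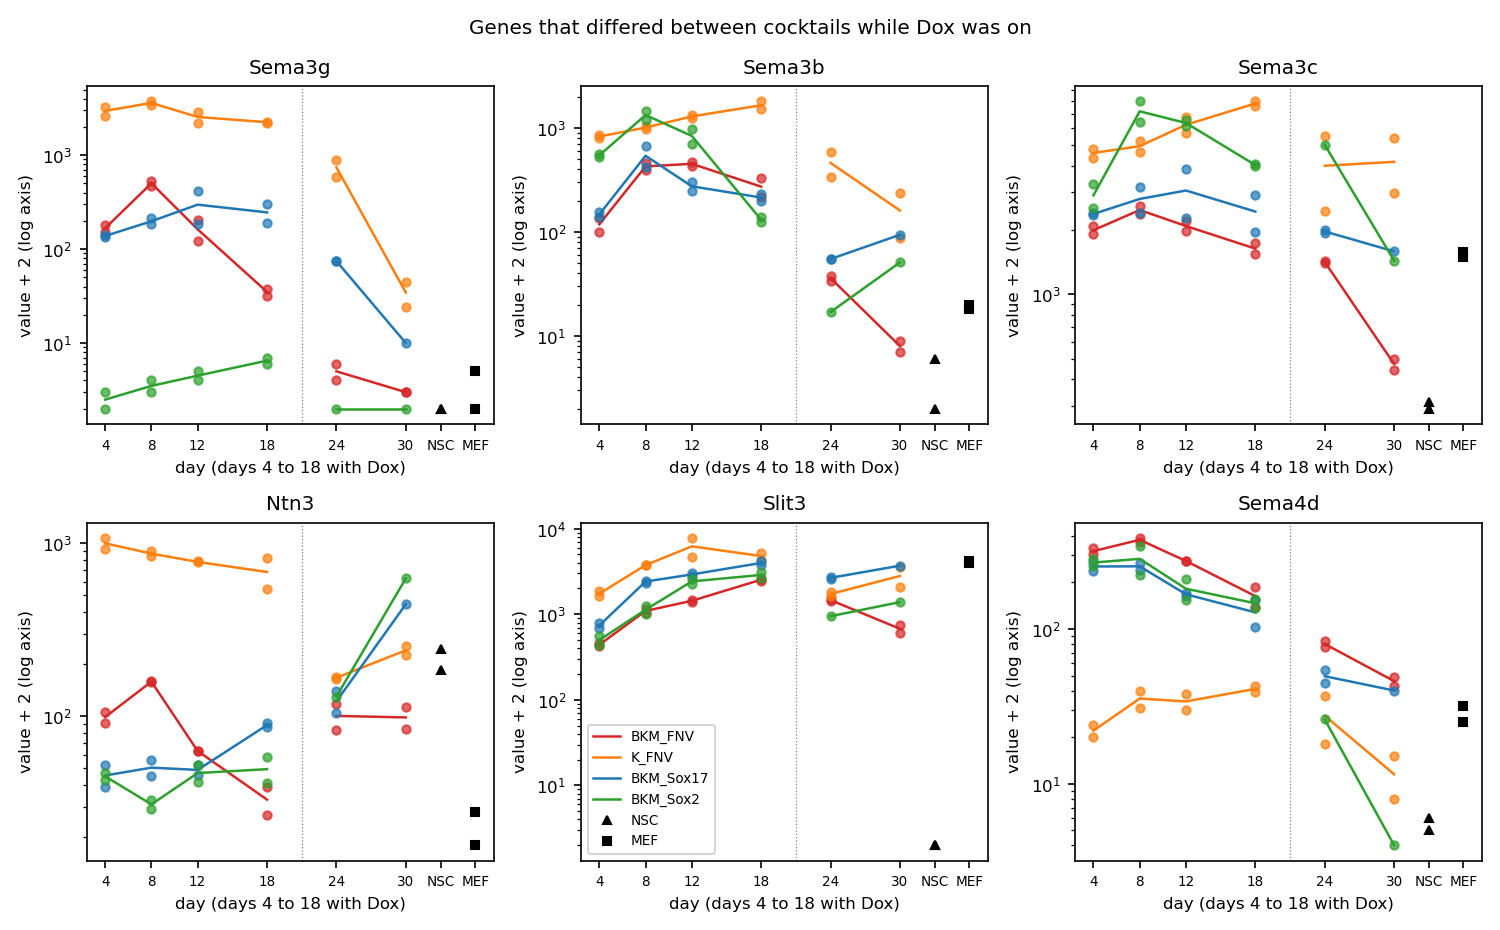
Values of 6 members by day in the 4 cocktails, with NSC and MEF libraries at the right. Points are libraries, lines join group means within days 4 to 18 and within days 24 and 30, and the value axis is logarithmic. Sema3g in K_FNV stays between 2222 and 3739 from day 4 to day 18, while BKM_Sox2 never exceeds 5.

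The eSox17FNV and wild-type Sox17 cocktails differed in few other members on Dox. BKM_FNV had 2 members higher and 2 lower than BKM_Sox17 over days 4 to 18, where 3.72% of all genes were called, 2.29% as higher and 1.43% as lower. Sema5b averaged 16, 58, 87 and 43.5 in BKM_FNV at days 4, 8, 12 and 18, against 15, 22.5, 12.5 and 8 in BKM_Sox17 (1.52 ± 0.21, adjusted p = 3.07e-06). The groups overlapped at day 4 and were apart at the later days. Ephb6, a kinase-dead Eph receptor, averaged 79, 53.5, 38.5 and 30 in BKM_FNV, against 105, 128.5, 128 and 86 in BKM_Sox17 (-1.20 ± 0.15, adjusted p = 8.99e-07). Sema4a averaged 58.5, 36, 17.5 and 8 in BKM_FNV, against 25, 7.5, 5.5 and 2 in BKM_Sox17 (1.48 ± 0.43, adjusted p = 0.0127). Sema5a was lower as well (-1.04 ± 0.16, adjusted p = 2.2e-05), and was not called with the doubted library kept, nor without BKM_FNV day 4 replicate 2, day 12 replicate 2 or day 18 replicate 1. With that library kept 3 members were called, and 2.12% of all genes. At an unadjusted p below 0.05, 35 of the 65 members and 36.1% of all genes tested passed. Pluripotency markers were called higher in BKM_FNV for 8 of 8 genes, and their part was not tested.

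Against BKM_Sox2, BKM_FNV had 2 members higher and 6 lower on Dox, where 6.18% of all genes were called, 3.37% as higher and 2.81% as lower. With libraries rescaled by median ratios the split was 4 higher and 6 lower. Sema7a averaged 11, 31, 29.5 and 19 in BKM_FNV at days 4, 8, 12 and 18, against 68, 245.5, 206.5 and 48 in BKM_Sox2 (-2.37 ± 0.18, adjusted p = 6.19e-11). Ephb6 averaged 145.5, 236.5, 185.5 and 161 in BKM_Sox2 at the same days, and its difference was -1.89 ± 0.15 (adjusted p = 1.4e-10). Sema3c, a secreted semaphorin of neural crest and heart outflow tract development, averaged 1992.5, 2477, 2084 and 1633 in BKM_FNV, against 2905, 7183.5, 6334.5 and 4024 in BKM_Sox2 (-1.24 ± 0.14, adjusted p = 8.91e-08). Efna1 averaged 23, 39, 53 and 64 in BKM_FNV, against 75, 126.5, 95 and 99.5 in BKM_Sox2 (-1.17 ± 0.12, adjusted p = 5.09e-09). Sema4b and Sema5a fell by 1.12 and 1.08 and were not called with the doubted library kept. In all of these the libraries did not overlap at any of the 4 days, which was a condition for giving values and adds no support. The other member called higher, beside Sema3g, was Sema4a, with 23, 20, 6, 11, 2, 6, 3 and 4 in the 8 BKM_Sox2 libraries of days 4 to 18. With the doubted library in the fit 6 members were called, and 4.27% of all genes. Pluripotency markers were higher in BKM_FNV for 7 of 8 genes, and their part was not tested.

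Most members that differed between K_FNV and BKM_FNV on Dox were higher in K_FNV. Without Brn4 and c-Myc, 23 members were higher and 5 lower, where 14.5% of all genes were called, 7.5% as higher and 6.97% as lower. Among the ligands 15 of 34 were higher and 3 lower, and all 3 netrins were among those higher. Ntn3 averaged 995.5, 868.5, 777.5 and 679.5 in K_FNV at days 4, 8, 12 and 18, against 97, 156.5, 61 and 31 in BKM_FNV (3.44 ± 0.11, adjusted p = 3.03e-19). Ntn4 averaged 546.5, 451.5, 431.5 and 506.5 in K_FNV, against 188, 141.5, 183.5 and 214.5 in BKM_FNV (1.41 ± 0.10, adjusted p = 8.73e-13). Ntn1 was higher by 1.19 ± 0.11 (adjusted p = 1.75e-10) and was not called with the doubted library kept. The netrin receptor Unc5d averaged 141, 86, 64 and 48 in K_FNV, against 111, 25.5, 5.5 and 5.5 in BKM_FNV (2.00 ± 0.18, adjusted p = 2.09e-10).

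Slit2 and Slit3, the Slits high in MEFs, were higher in K_FNV at each of the 4 days. Slit3 averaged 1738.5, 3750.5, 6220 and 4785.5 in K_FNV, against 438, 1091.5, 1435 and 2532 in BKM_FNV (1.69 ± 0.19, adjusted p = 1.53e-08). Slit2 averaged 4527, 8171.5, 6023 and 5248 in K_FNV, against 2048.5, 2546.5, 1792 and 1887.5 in BKM_FNV (1.52 ± 0.10, adjusted p = 8.91e-14). Secreted semaphorins were also higher. Sema3b averaged 826, 1008, 1290 and 1653 in K_FNV, against 116.5, 425.5, 450.5 and 271 in BKM_FNV (2.05 ± 0.20, adjusted p = 8.75e-10). Sema3c averaged 4583, 4934.5, 6212 and 7820 in K_FNV, against 1992.5, 2477, 2084 and 1633 in BKM_FNV (1.51 ± 0.14, adjusted p = 4.48e-10). Sema3f and Sema3a were higher by 1.46 and 1.07, so that 5 of the 7 class 3 semaphorins were called higher, Sema3g included. Sema4d went the other way, with 20, 33.5, 32 and 39 in K_FNV, against 316.5, 375, 273 and 161 in BKM_FNV (-3.07 ± 0.14, adjusted p = 3.05e-16).

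Among the receptors, Plxna2 averaged 1919.5, 1887.5, 1547.5 and 1436 in K_FNV, against 564, 534.5, 621 and 410 in BKM_FNV (1.68 ± 0.09, adjusted p = 3.67e-15). Plxna4 averaged 116.5, 66.5, 68 and 44.5 in K_FNV, against 20.5, 20.5, 7.5 and 9 in BKM_FNV (2.25 ± 0.21, adjusted p = 3.83e-10). Epha4, a receptor for both ephrin classes, was higher by 1.50 ± 0.18 (adjusted p = 2.85e-08). Epha5 was lower, at 142.5, 125.5, 121.5 and 120.5 in K_FNV, against 196, 252.5, 386.5 and 445.5 in BKM_FNV (-1.24 ± 0.09, adjusted p = 5.84e-13). The transmembrane ephrins were higher, Efnb2 by 1.53 ± 0.11 (adjusted p = 1.68e-12) and Efnb1 by 1.24 ± 0.10 (adjusted p = 8.99e-12). Efna1 was lower, at 8.5, 14.5, 16 and 26.5 in K_FNV, against 23, 39, 53 and 64 in BKM_FNV (-1.35 ± 0.12, adjusted p = 4.72e-11). Sema5a, Sema5b and Ephb6 were higher by 1.75, 1.52 and 1.48. Ephb1 lost its call without K_FNV day 12 replicate 1. The call of Sema7a was lost without any 1 of BKM_FNV day 4 replicate 1, day 8 replicate 2, day 12 replicate 2 and day 18 replicate 1 and K_FNV day 8 replicate 2, day 12 replicate 1 and day 18 replicate 2. When the doubted library was kept 21 members were called, where 11.2% of all genes were, and Plxna2, Slit2, Ntn1, Efnb1, Efnb2, Epha4 and Sema7a were not among them.

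Of the other pathway genes 10 were higher and 2 lower in K_FNV than in BKM_FNV on Dox. L1cam, an adhesion molecule of axons, averaged 134.12 over the 4 days in K_FNV, against 8.88 in BKM_FNV (3.63 ± 0.21, adjusted p = 2.42e-14). Dpysl5 averaged 155.38 in K_FNV, against 589 in BKM_FNV (-1.72 ± 0.20, adjusted p = 1.28e-08). Fibroblast markers also moved with these groups, with sums of 181313 to 351190 in K_FNV and 84282 to 236826 in BKM_FNV over days 4 to 18, and epithelial markers summed to 2672 to 4349 in K_FNV and 4440 to 21880 in BKM_FNV. Pluripotency markers were lower in K_FNV for 4 of 8 genes. Their part in the guidance genes was not tested.

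The next comparisons set day 18 against day 4 within a cocktail. At day 18, 16 members were higher and 9 lower than at day 4 in BKM_FNV, where 22.9% of all genes were called, 11.4% as higher and 11.5% as lower. In K_FNV 5 were higher and 6 lower, where 10.4% were called, 5.4% as higher and 4.97% as lower. In BKM_FNV Sema6c had 567 and 577 at day 18, against 69 and 53 at day 4 (3.20 ± 0.41, adjusted p = 1.36e-07). Sema4g had 264 and 127 at day 18, against 19 and 17 at day 4 (3.21 ± 0.37, adjusted p = 2.84e-08). Plxnd1, the endothelial semaphorin receptor, had 862 and 683 at day 18, against 101 and 81 at day 4 (3.06 ± 0.30, adjusted p = 1.32e-09). Ephb3 had 1371 and 1490 at day 18, against 270 and 288 at day 4 (2.35 ± 0.19, adjusted p = 4.25e-11). Unc5a had 386 and 104 at day 18, against 18 and 31 at day 4 (2.98 ± 0.45, adjusted p = 2.49e-06), and its day 18 replicates stood far apart. Slit3, Sema4c, Epha4 and Sema3f were higher by 2.53, 2.11, 1.88 and 1.76, and Efna1 and Ntn1 by 1.41 and 1.33.

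The decreases in BKM_FNV were led by Unc5d, with 4 and 7 at day 18, against 118 and 104 at day 4 (-3.94 ± 0.36, adjusted p = 5.2e-10). Sema4b had 191 and 205 at day 18, against 649 and 545 at day 4 (-1.58 ± 0.21, adjusted p = 4.38e-07). Ntn3 had 25 and 37 at day 18, against 104 and 90 at day 4 (-1.61 ± 0.23, adjusted p = 9.98e-07), and Sema3g fell by 2.25 (standard error 0.47, adjusted p = 0.000189). In K_FNV Sema3f had 1469 and 1606 at day 18, against 368 and 359 at day 4 (2.07 ± 0.35, adjusted p = 4.33e-05). Plxnb1 had 150 and 152 at day 18, against 369 and 387 at day 4 (-1.31 ± 0.27, adjusted p = 0.000334). Of the receptors, Plxna4, Plxnb3, Plxnc1 and Unc5d were also called lower in K_FNV and none higher. With these 2 groups fitted alone Plxna4, Plxnb3 and Plxnc1 were not called. Plxna4 was not called either without K_FNV day 18 replicate 2, day 4 replicate 1 or day 4 replicate 2, nor Plxnc1 with a pseudocount of 8 or without K_FNV day 18 replicate 1 or day 4 replicate 1. The difference between the 2 courses was itself called for 24 members, where 14.7% of all genes were called, 7.4% upwards and 7.32% downwards. Plxnd1 had 220 and 187 at day 18, against 277 and 317 at day 4, in K_FNV, and its course differed from that of BKM_FNV by -3.60 ± 0.42 (adjusted p = 3.57e-07). With the doubted library kept, 9 members were called in the BKM_FNV course, 3 in the K_FNV course and 3 in the difference, where 10%, 3.49% and 3.05% of all genes were called. Of the genes named for the 2 courses, Sema6c, Sema4g, Sema4c, Efna1 and Unc5d in BKM_FNV and Plxnb3 and Plxnc1 in K_FNV were then still called. Crmp1, among the other pathway genes, averaged 150.5 at day 18, against 1552 at day 4, in BKM_FNV (-3.46 ± 0.36, adjusted p = 4.68e-09).

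Markers of other cell types also moved between these days. In BKM_FNV epithelial markers were higher at day 18 for 6 of 7 genes, with sums of 14139 to 21880, against 4440 to 5072 at day 4. Pluripotency markers were higher for 7 of 8, with sums of 1338 to 2643 at day 18, against 118 to 155 at day 4 with 2 to 4 genes at 0. Fibroblast markers were higher for 5 of 10 and lower for 1, with sums of 230190 to 236826, against 84282 to 96040 at day 4. In K_FNV pluripotency markers were higher for 6 of 8, with sums of 228 to 580 at day 18, against 56 to 63 at day 4, and epithelial markers were higher for 4 of 7 and lower for 2. Neuron markers were lower in K_FNV for 5 of 10, with sums of 3676 to 4471, against 9752 to 10281 at day 4. What part these markers have in the guidance genes was not tested.

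After Dox withdrawal a group of guidance genes was higher in BKM_FNV than in each of the other cocktails. Robo3, a Robo receptor of commissural neurons, had 109 and 133 at day 24 and 1725 and 1513 at day 30 in BKM_FNV. It had 13 and 2 at day 24 and 16 and 20 at day 30 in K_FNV, and 7, 8 and 2 in the BKM_Sox17 libraries of days 24, 24 and 30. BKM_Sox2 had 28 at day 24 and was listed at 0 at day 30, as were both NSC libraries. No library of another cocktail reached the lower BKM_FNV library of its day. The difference from BKM_Sox17 was 6.17 ± 0.37 (adjusted p = 1.29e-13) and that of K_FNV from BKM_FNV was -5.16 ± 0.33 (adjusted p = 1.65e-13). Robo3 spans chr9:37416045-37433436 in GRCm38.p6. The 250 bases before 1 annotated start, chr9:37433176-37433425 on the minus strand, are shown because the gene set BKM_FNV apart from every other cocktail at both days. Capitals mark a match to the Klf motif GGGNGTGG.
Robo3: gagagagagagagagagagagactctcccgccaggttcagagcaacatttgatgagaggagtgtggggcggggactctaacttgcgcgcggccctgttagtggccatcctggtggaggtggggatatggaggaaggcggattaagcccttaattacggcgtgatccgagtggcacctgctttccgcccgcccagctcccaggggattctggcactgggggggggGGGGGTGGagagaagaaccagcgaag

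**Figure D3:**
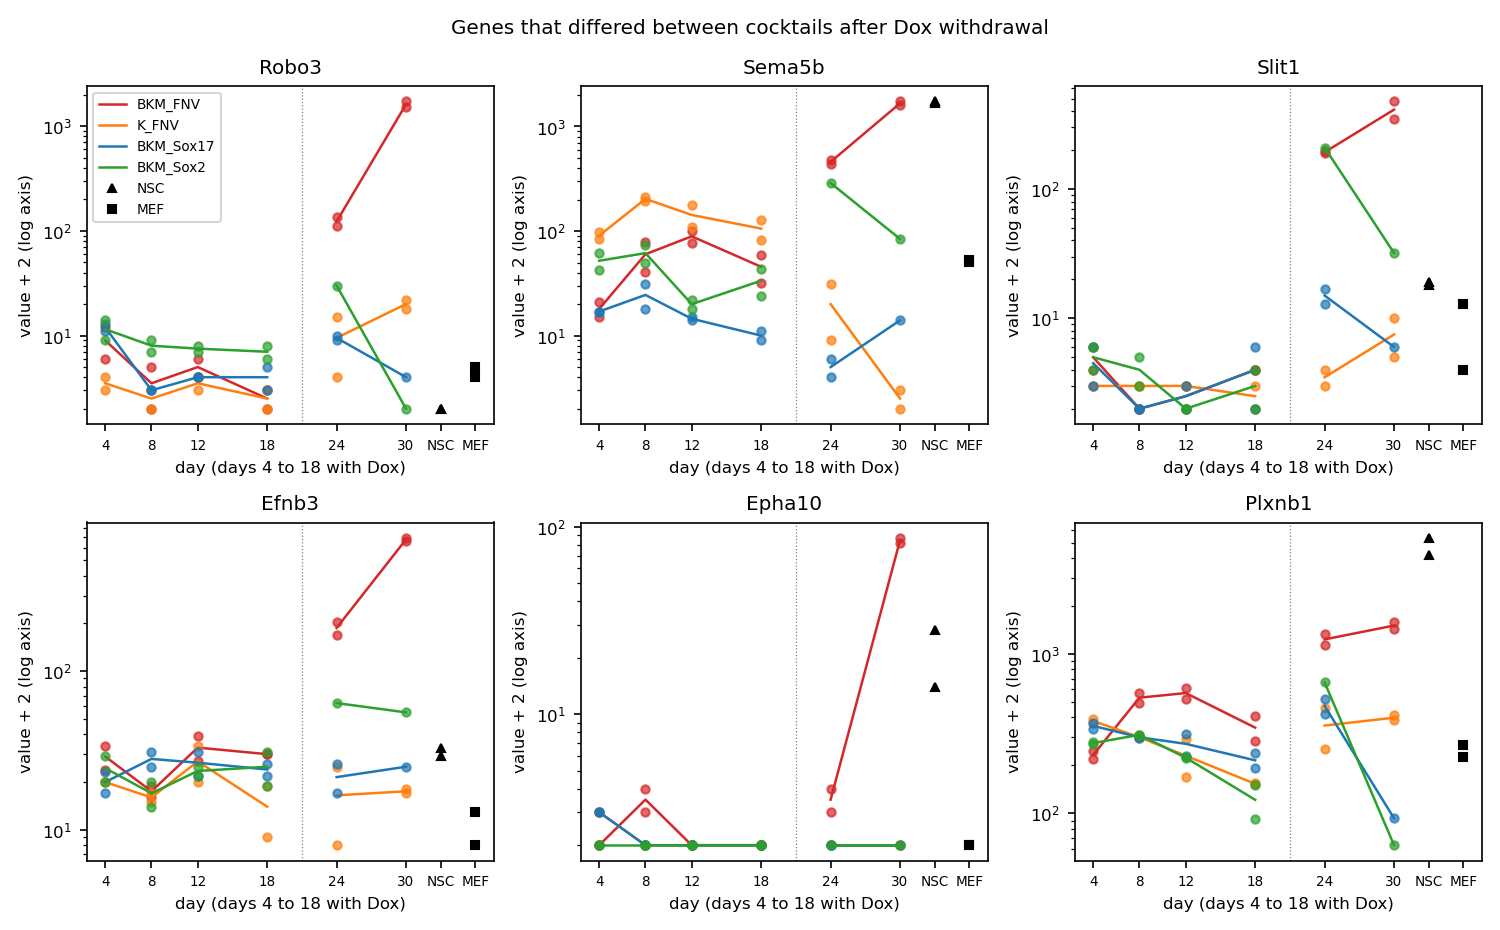
Values of 6 members by day in the 4 cocktails, with NSC and MEF libraries at the right. Points are libraries, lines join group means within days 4 to 18 and within days 24 and 30, and the value axis is logarithmic. Robo3 reaches 1513 and 1725 in BKM_FNV at day 30, while every other group of that day stays at 20 or below.

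Over days 24 and 30, BKM_FNV had 24 members higher and 6 lower than BKM_Sox17, where 17.8% of all genes were called, 9.67% as higher and 8.15% as lower. Against BKM_Sox2 18 were higher and 3 lower, where 15.1% were called, 8.72% as higher and 6.42% as lower. With libraries rescaled by median ratios the split against BKM_Sox2 was 24 higher and 3 lower, where 14.9% of all genes were called. K_FNV had 10 members higher and 18 lower than BKM_FNV, where 21.7% were called, 10.9% as higher and 10.8% as lower. These comparisons share the 4 BKM_FNV libraries, so the same BKM_FNV values stand behind all of them. Sema5b had 474 and 439 at day 24 and 1736 and 1593 at day 30 in BKM_FNV. It had 7, 29, 1 and 0 in the K_FNV libraries, 4, 2 and 12 in those of BKM_Sox17, and 286 and 82 in those of BKM_Sox2. NSCs had 1691 and 1736, close to BKM_FNV at day 30. The difference was 6.72 ± 0.33 from BKM_Sox17 (adjusted p = 2.11e-15) and 2.49 ± 0.36 from BKM_Sox2 (adjusted p = 2.59e-06), and that of K_FNV from BKM_FNV was -7.09 ± 0.29 (adjusted p = 1.94e-17).

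Slit1, the Slit of the nervous system, had 194 and 187 at day 24 and 474 and 344 at day 30 in BKM_FNV. It had 2, 1, 3 and 8 in the K_FNV libraries and 11, 15 and 4 in those of BKM_Sox17. BKM_Sox2 had 207 at day 24, above both BKM_FNV libraries, and 30 at day 30. The difference was 4.89 ± 0.39 from BKM_Sox17 (adjusted p = 3.12e-11) and that of K_FNV from BKM_FNV was -5.82 ± 0.35 (adjusted p = 3.40e-14). Efnb3, a transmembrane ephrin of midline and spinal cord, had 203 and 168 at day 24 and 661 and 691 at day 30 in BKM_FNV. It had 23, 6, 16 and 15 in the K_FNV libraries, 15, 24 and 23 in those of BKM_Sox17, and 61 and 53 in those of BKM_Sox2. Its difference was 3.96 ± 0.31 from BKM_Sox17 (adjusted p = 2.75e-11) and 2.60 ± 0.34 from BKM_Sox2 (adjusted p = 5.66e-07), and -4.50 ± 0.28 for K_FNV from BKM_FNV (adjusted p = 7.67e-14). NSCs had 17 and 16 for Slit1 and 27 and 31 for Efnb3, below every BKM_FNV library of these days.

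Several Eph receptors, Plxnb1 and other semaphorins were also higher in BKM_FNV. Epha10, a kinase-dead receptor, had 1 and 2 at day 24 and 80 and 85 at day 30 in BKM_FNV, and was listed at 0 in every K_FNV, BKM_Sox17 and BKM_Sox2 library of both days. Ephb1 had 115 and 105 at day 24 and 212 and 211 at day 30 in BKM_FNV, against 18, 15 and 16 in BKM_Sox17 (3.08 ± 0.24, adjusted p = 2.35e-11) and 21 and 0 in BKM_Sox2 (adjusted p = 1.47e-13). K_FNV had 82, 53, 49 and 32 (-1.54 ± 0.22, adjusted p = 6.01e-07). Ephb2 had 1556, 1562, 2588 and 2491 in BKM_FNV, and K_FNV had 186, 341, 186 and 419 (-2.90 ± 0.19, adjusted p = 2.09e-13). Against the 796, 811 and 819 of BKM_Sox17, Ephb2 was higher by 1.29 ± 0.21 (adjusted p = 9.58e-06), a call lost with the doubted library kept. Plxnb1 had 1327, 1142, 1580 and 1437 in BKM_FNV, against 523, 418 and 91 in BKM_Sox17 (2.71 ± 0.21, adjusted p = 2.05e-11) and 661 and 61 in BKM_Sox2 (2.74 ± 0.23, adjusted p = 1.93e-10). K_FNV had 457, 250, 410 and 383 (-1.89 ± 0.19, adjusted p = 1.19e-09). The semaphorin Sema4g had 182 and 198 at day 24 and 1234 and 1199 at day 30 in BKM_FNV, against 116, 115 and 188 in BKM_Sox17 (1.69 ± 0.29, adjusted p = 2.24e-05), a call lost with the doubted library kept. K_FNV had 56, 94, 118 and 107 (-2.39 ± 0.26, adjusted p = 8.37e-09). Sema3f had 773 and 821 at day 24 and 1286 and 1272 at day 30 in BKM_FNV, against 169, 168 and 63 in BKM_Sox17 (3.26 ± 0.28, adjusted p = 1.43e-10). Sema6c was higher in BKM_FNV than in BKM_Sox17 and BKM_Sox2 by 2.00 and 1.67, and its difference between K_FNV and BKM_FNV was -2.84. Sema7a behaved unlike these, with 1477 and 1458 at day 24 but 40 and 47 at day 30 in BKM_FNV, against 99 and 11 in BKM_Sox2 (2.83 ± 0.32, adjusted p = 4.13e-08) and 828 and 860 in K_FNV at day 30.

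Other members were lower in BKM_FNV. Sema3c had 1395 and 1434 at day 24 and 497 and 442 at day 30 in BKM_FNV, against 1990, 1942 and 1585 in BKM_Sox17 (-1.11 ± 0.23, adjusted p = 0.000157) and 5007 and 1434 in BKM_Sox2 (-1.72 ± 0.25, adjusted p = 2.39e-06). The call against BKM_Sox17 was lost with libraries rescaled by median ratios. K_FNV had 5532, 2452, 5365 and 2971 (2.23 ± 0.20, adjusted p = 1.89e-10). Sema3g had 588 and 891 at day 24 and 22 and 43 at day 30 in K_FNV, against 4, 2, 1 and 1 in BKM_FNV (5.33 ± 0.33, adjusted p = 7.79e-14). Sema3b was higher in K_FNV by 3.90 ± 0.28 (adjusted p = 2.31e-12). Unc5b had 3144, 4330, 1575 and 2317 in K_FNV, against 1400, 1365, 925 and 1118 in BKM_FNV (1.16 ± 0.15, adjusted p = 9.86e-08). Ntn3 had 81, 116, 111 and 82 in BKM_FNV, against 128 and 624 in BKM_Sox2 (-1.54 ± 0.20, adjusted p = 3.99e-07), a call lost with the doubted library kept. Slit2 and Slit3 were higher in K_FNV than in BKM_FNV by 1.12 each, and these calls were lost with the doubted library kept, and also without K_FNV day 30 replicate 2 for Slit2 and replicate 1 for Slit3.

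With the doubted library kept, 19 members were called between BKM_FNV and BKM_Sox17, where 10.7% of all genes were, and 20 between K_FNV and BKM_FNV, where 15% were. Between BKM_FNV and BKM_Sox2 it was 32 members, 29 of them higher, and 31.7% of all genes. The last comparison uses that library directly, and the median of all genes in it was then 0.408. The day 30 groups of BKM_Sox17 and BKM_Sox2 and the day 24 group of BKM_Sox2 rest on 1 library each, which is taken to vary as the other groups do. Markers of several cell types moved with the same groups. All 8 pluripotency markers were higher in BKM_FNV than in BKM_Sox17 and BKM_Sox2, and lower in K_FNV than in BKM_FNV. At day 24 they summed to 4493 to 4519 in BKM_FNV with none at 0, 21 to 28 in K_FNV, 83 to 91 in BKM_Sox17 and 71 in BKM_Sox2, with 5 or 6 at 0 in these cocktails. Epithelial markers were higher in BKM_FNV than in BKM_Sox17 for 4 of 7 genes and than in BKM_Sox2 for 7 of 7, and lower in K_FNV than in BKM_FNV for 7 of 7. Neuron markers were higher in BKM_FNV than in BKM_Sox17 for 6 of 10 genes and lower for 1, higher than in BKM_Sox2 for 6, and lower in K_FNV than in BKM_FNV for 7. At day 30 the neuron markers summed to 15876 to 16893 in BKM_FNV with none of the 10 genes at 0, 1861 to 2256 in K_FNV with 1 or 2 at 0, 9274 in BKM_Sox17 with 2 at 0 and 2380 in BKM_Sox2 with 2 at 0. The 10 neural stem cell markers summed to 18851 to 19899 in BKM_FNV at day 30, 2344 to 3165 in K_FNV, 832 in BKM_Sox17 and 1729 in BKM_Sox2. Their part in the guidance genes was not tested.

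Of the other pathway genes, 8 were higher and 4 lower in BKM_FNV than in BKM_Sox17 after Dox, 9 higher and 4 lower than in BKM_Sox2, and 8 higher and 8 lower in K_FNV than in BKM_FNV. Dcc, the attractive netrin receptor, averaged 607.25 over both days in BKM_FNV, against 53 in BKM_Sox17 (3.54 ± 0.24, adjusted p = 1.49e-12) and 139 in BKM_Sox2 (4.58 ± 0.26, adjusted p = 1.02e-13). The Dcc difference from BKM_Sox2 is a mean of within-day log2 differences, with 1 BKM_Sox2 library at each day. It is not the ratio of the means given. Dpysl4 averaged 777.5 in BKM_FNV, against 5 in BKM_Sox17 (6.55 ± 0.39, adjusted p = 9.58e-14) and 6.5 in BKM_Sox2 (6.36 ± 0.42, adjusted p = 2.11e-12). Dpysl5 averaged 10 in K_FNV, against 1623.25 in BKM_FNV (-7.31 ± 0.28, adjusted p = 2.51e-18), and Fes 140.5, against 23.5 (3.06 ± 0.25, adjusted p = 2.0e-11).

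In the parallel experiment, day 4 in N2B27 medium was set against Sox2-GFP MEFs at passage 1, a different transgenic source, so the MEF source differs as well as factors and medium. There 11 of the 64 members were higher and 12 lower, where 18.4% of the 20468 genes tested were called, 9.88% as higher and 8.54% as lower. Efna3 had 2031 and 2132 in N2B27 cells, against 49 and 35 in MEFs (5.58 ± 0.33, adjusted p = 6.79e-09). Sema3g had 496 and 469, against 4 and 0 (7.13 ± 0.62, adjusted p = 4.63e-07). Sema3c had 8829 and 7486 in N2B27 cells, against 1397 and 1471 in MEFs (2.50 ± 0.17, adjusted p = 3.88e-08). Efna4 had 520 and 423, against 113 and 125 in MEFs (1.96 ± 0.19, adjusted p = 1.42e-06), and Sema3d 2873 and 2475, against 1111 and 1059 (1.30 ± 0.10, adjusted p = 1.03e-07). Unc5b had 1133 and 1179 in N2B27 cells, against 8623 and 8623 in MEFs, and fell by 2.90 (standard error 0.27, adjusted p = 1.03e-06). Ntn4 had 258 and 232, against 1034 and 1047 in MEFs (-2.08 ± 0.25, adjusted p = 1.32e-05). Sema4b, which was higher at day 4 of the NSC-medium courses, was lower here, with 61 and 67 in N2B27 cells, against 148 and 144 in MEFs (-1.17 ± 0.20, adjusted p = 0.000248). Epithelial markers were higher in N2B27 cells for 5 of 7 genes and lower for 1, with sums of 3786 to 3798, against 367 to 394 in MEFs. Neuron markers were higher for 6 of 10, with sums of 10322 to 11710, against 2280 to 2389 in MEFs, and macrophage markers were lower for 4 of 5. Their part in the guidance genes was not tested. The 2 experiments were normalised apart, and no test was run between them. The same 2 MEF samples serve as the control of day 4 in both, so these comparisons are not independent.

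The LIF/2i and NSC media then split the same day 8 cells. With Dox still on, at days 12 and 16, 8 members were higher and 10 lower in LIF/2i than in NSC medium, where 15.5% of all genes were called, 8.07% as higher and 7.45% as lower. With libraries rescaled by median ratios the split was 9 and 7. After Dox, at days 20 and 24, 4 were higher and 31 lower, where 24.5% of all genes were called, 12.2% as higher and 12.3% as lower. Among the receptors 14 of 30 were then lower and 1 higher, and all 3 netrins were lower. The median change of the members was -0.86, against -0.10 for all genes. The difference between the 2 phases was itself called for 28 members, 5 upwards and 23 downwards, where 13.9% of all genes were called, 6.51% upwards and 7.36% downwards.

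**Figure D4:**
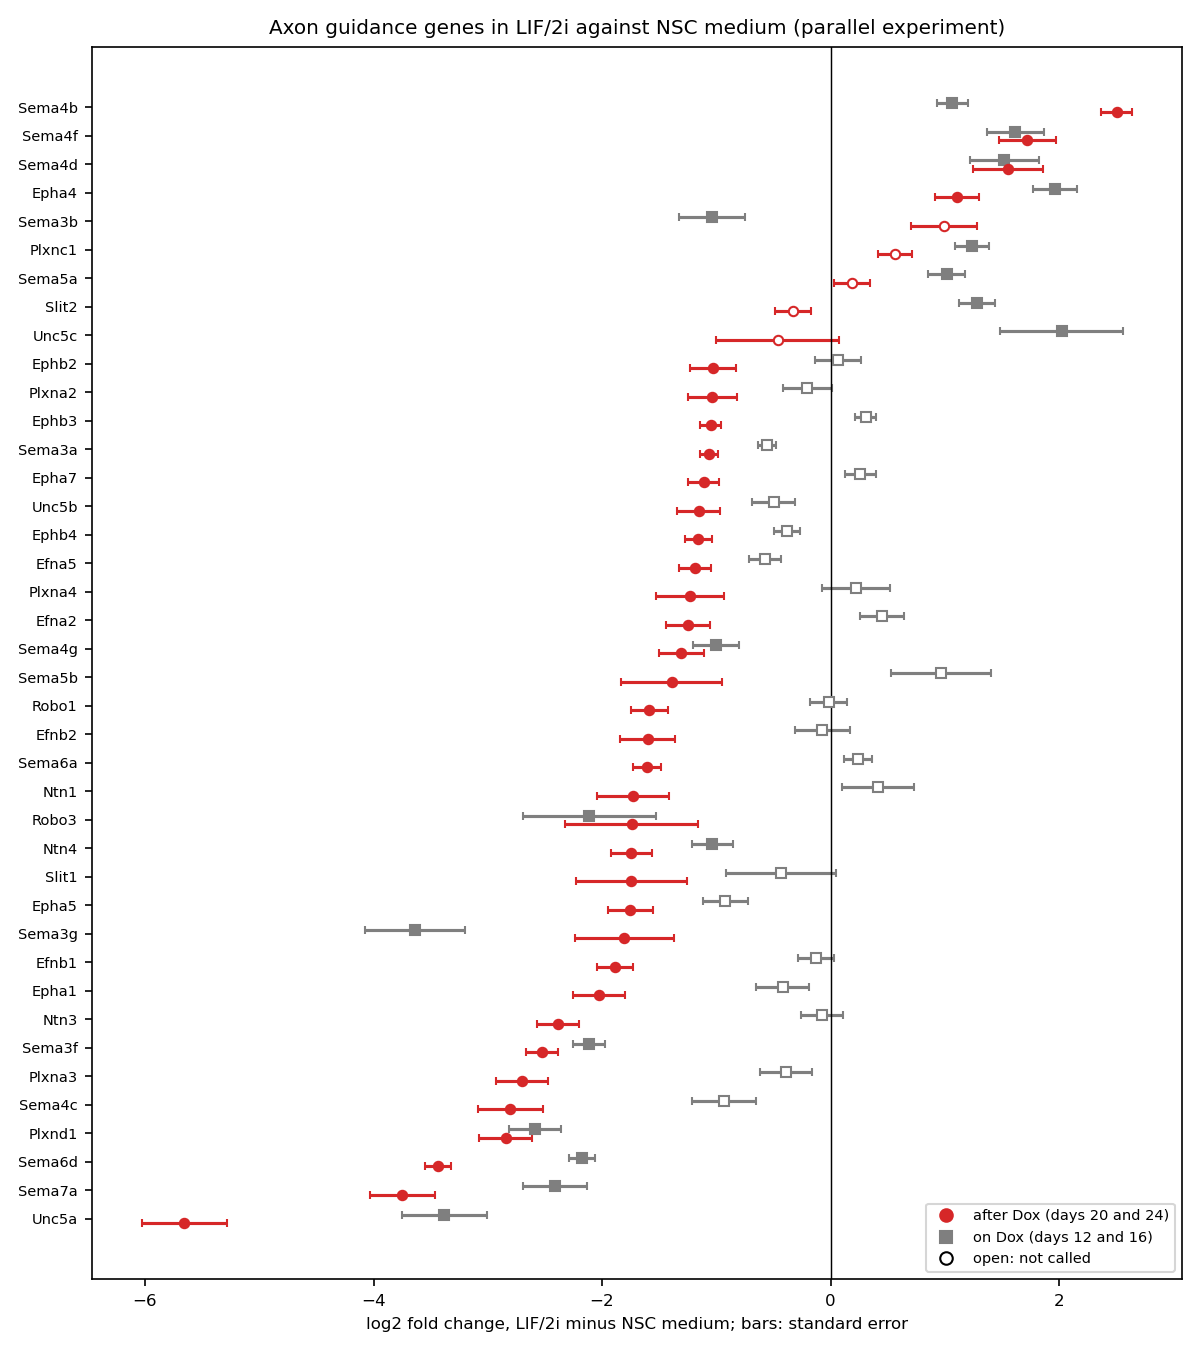
Log2 fold change between LIF/2i and NSC medium after Dox (days 20 and 24, circles) and on Dox (days 12 and 16, squares) for the 40 members called in either phase, with the standard error of the fit. Open symbols are not called. Most circles lie left of 0, and Unc5a is farthest left in both phases but for Sema3g on Dox.

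Unc5a had 3 in each of the 4 LIF/2i libraries after Dox, against 104 and 181 at day 20 and 666 and 310 at day 24 in NSC medium (-5.66 ± 0.37, adjusted p = 5.84e-09). Sema6d had 61 and 77 at day 20 and 84 and 73 at day 24 in LIF/2i, against 432, 459, 1845 and 1193 in NSC medium (-3.44 ± 0.12, adjusted p = 5.65e-12). On Dox the differences were -3.38 for Unc5a and -2.18 for Sema6d. Plxnd1 had 66, 71, 72 and 159 in LIF/2i, against 483, 540, 835 and 714 in NSC medium (-2.85 ± 0.23, adjusted p = 4.89e-08). Sema4c had 86, 58, 128 and 111 in LIF/2i, against 447, 460, 1069 and 824 in NSC medium (-2.80 ± 0.28, adjusted p = 5.61e-07). Plxna3 had 78, 63, 72 and 84 in LIF/2i, against 281, 336, 1084 and 571 in NSC medium (-2.70 ± 0.23, adjusted p = 8.28e-08). Sema4c and Plxna3 had not been called on Dox. The differences of Sema3f, Sema7a and Ntn3 were -2.52, -3.75 and -2.38.

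Robo1, Ntn1, Efnb1 and Efnb2 were not called on Dox and were lower after it. Robo1 had 743 and 759 at day 20 and 756 and 804 at day 24 in LIF/2i, against 1662, 1936, 3648 and 2403 in NSC medium (-1.59 ± 0.16, adjusted p = 6.46e-07). Ntn1 had 381, 959, 576 and 969 in LIF/2i, against 1900, 1908, 2111 and 3222 in NSC medium (-1.73 ± 0.31, adjusted p = 0.00023). Efnb1 had 350, 322, 161 and 212 in LIF/2i, against 784, 742, 1318 and 959 in NSC medium (-1.89 ± 0.15, adjusted p = 5.89e-08), and Efnb2 fell by 1.60. No library of the 2 media overlapped for these 4 genes at either day, which was a condition for giving values and adds no support. Sema4b rose in LIF/2i, with 763, 890, 1021 and 1047, against 146, 211, 124 and 176 in NSC medium (2.50 ± 0.14, adjusted p = 9.54e-10). Epha4 had 1179, 1520, 2642 and 2995 in LIF/2i, against 586, 697, 1741 and 913 in NSC medium (1.11 ± 0.19, adjusted p = 0.000149), a call lost without NSC medium day 24 replicate 2. Sema4d rose by 1.55 and Sema4f by 1.72, and the 4 higher members were also called higher on Dox, where Sema4f was not called with a pseudocount of 8, nor Sema4b without NSC medium day 12 replicate 1, LIF/2i day 12 replicate 2 or LIF/2i day 16 replicate 1. The members lower in both phases numbered 9: Ntn4, Plxnd1, Robo3, Sema3f, Sema3g, Sema4g, Sema6d, Sema7a and Unc5a. On Dox, Ntn4 and Sema4g lost their calls with a pseudocount of 8 and with rescaling. Ntn4 lost it also without NSC medium day 16 replicate 2, LIF/2i day 12 replicate 1 or LIF/2i day 16 replicate 1. Sema4g lost it without NSC medium day 12 replicate 1 or day 16 replicate 2, or without LIF/2i day 12 replicate 2 or day 16 replicate 2. After Dox, Sema3g lost its call with a pseudocount of 8 and Robo3 with the compared groups fitted alone. The 2 phases have no library in common.

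The NSC medium replicates of day 24 differed from each other. Robo3 had 913 and 100, Sema5b 440 and 63 and Slit1 289 and 62 in them, against 11 and 8, 14 and 9, and 11 and 6 in LIF/2i at that day, while at day 20 Robo3 and Slit1 overlapped between the media and Sema5b was higher in LIF/2i, at 29 and 26, against 12 and 16 in NSC medium. Without NSC medium day 24 replicate 1, Robo3 and Sema5b were not called (Robo3 also not without LIF/2i day 20 replicate 2 or day 24 replicate 2), nor were Plxna2, Plxna4, Epha7 and Ephb2. Neuron markers summed to 4871 and 12312 in those replicates, and to 2390 to 2791 in LIF/2i at day 24. Pluripotency markers, none of the 8 at 0, summed to 60942 to 91990 in LIF/2i at days 20 and 24 and to 2104 to 8378 in NSC medium. On Dox they were higher in LIF/2i for 6 of 8 genes. Their part in the guidance genes was not tested. Of the other pathway genes 2 were higher and 16 lower in LIF/2i after Dox. Rgmb, a ligand of neogenin, averaged 266.5 in LIF/2i, against 1797.25 in NSC medium (-2.71 ± 0.19, adjusted p = 1.0e-08), and Crmp1 averaged 105, against 697.75 (-2.85 ± 0.36, adjusted p = 5.79e-06). Nrp1 averaged 488.25 in LIF/2i, against 1976.25 in NSC medium (-1.96 ± 0.18, adjusted p = 1.80e-07).

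Some members stayed low throughout. Epha8, Robo4 and Sema4f reached 50 in no library of the NSC-medium experiment, and Epha6, Epha10, Robo4, Sema4f and Unc5d in none of the parallel experiment. Epha6 averaged 36.5 in BKM_FNV at day 30, 32.5 in K_FNV at day 30 and 26 in BKM_Sox17 at day 30, and had 136 in the BKM_Sox2 library of day 24, against 0 in MEFs. It was called in none of the comparisons of the NSC-medium experiment.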

How the data were processed

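RNA-seq of 74 labelled mouse samples was analysed from 2 tables, one per experiment. The values are scores, normalized tag counts rounded to whole numbers, deposited by the authors without read depth. RSEM, Bowtie2 2.0 and mm10 are named in the submitters' processing notes. What normalization was applied is not given in the sources used here, and the 2 tables were tested apart. Columns were matched to samples by name, NSC columns to their group only, and their replicate numbers are those of the column names. The 4 columns that match no labelled sample were not used.

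Values were taken as log2(value + 2), with a filter of at least 10 in at least 2 libraries, which left 20760 and 20468 genes. Linear models over all groups of a table were fitted with limma 3.58.1 in R 4.3.3, with empirical Bayes moderation and an intensity trend, and p-values were adjusted by Benjamini-Hochberg over all genes of a comparison. A gene was called at an adjusted p below 0.05 and a log2 change of at least 1. Differences over several days are means of the within-day log2 differences. BKM_Sox2 day 24 replicate 1 was left out. The fitting code was tested on simulated data.

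Values are given for called members whose libraries did not overlap and whose mean reached 50 in a group, up to 8 each way. Other members are named by role, and up to 3 other pathway genes are named each way. The name pattern and the lists use no measured value, but the gene families and lists were chosen with earlier results of these data known, and a few members outside this rule were named after their values were seen. Alternatives were a pseudocount of 8, no filter, median-ratio rescaling, the compared groups alone, a replicate block, that block with the NSC numbers of the column names (added after seeing the data), the doubted library kept and 70 fits that each left out 1 library. Promoter sequences are from RefSeq (GRCm38.p6). Precision is limited by 2 libraries a group, and read counting error cannot be given.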

Additional observations from a re-analysis of the deposited data

Results flagged for a closer look

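In each of the following results the effect of one contrast differed between 2 settings, by a test of the difference itself in the limma fit (log2 units, Benjamini-Hochberg adjusted p over all genes). The first set is the change from day 4 to day 18 on Dox in K_FNV minus that change in BKM_FNV, for 24 members. Among the Eph receptors the difference was -1.339 for Epha1, -1.315 for Epha4, -1.41 for Epha5, -1.421 for Ephb2, -2.295 for Ephb3 and 1.95 for Ephb6. The Epha8 coefficient was 3.857, but K_FNV was listed at 0 at both days, so it is no fold. Among the ephrins it was -1.559 for Efna2, -1.481 for Efna3 and -1.342 for Efnb1. Among the semaphorins it was 1.06 for Sema3c, 1.862 for Sema3g, 1.072 for Sema4b, -1.124 for Sema4c, 1.883 for Sema4d, -3.009 for Sema6c and -1.069 for Sema6d. Among the plexins it was -1.861 for Plxnb1, -1.893 for Plxnb3 and -3.599 for Plxnd1. Plxnb3 was low in both courses, and its range over the alternative fits, -2.232 to -1.249, was that of the K_FNV course alone. For the netrin Ntn3 the difference was 1.031, and for the Unc5 receptors -2.2 for Unc5a, -1.423 for Unc5b and 2.422 for Unc5d. The adjusted p was largest for Epha4, at 0.04888. The calls of Efna2, Efna3, Epha1, Epha4, Ntn3, Plxnb3, Sema3c, Sema3g, Sema4b, Sema6d and Unc5a were each lost when 1 of the compared libraries was left out.

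The second set is the difference between LIF/2i and NSC medium after Dox minus that on Dox, for 28 members. Among the Eph receptors it was -1.609 for Epha1, 1.219 for Epha2, -1.722 for Epha3, -1.368 for Epha7, -1.095 for Ephb2 and -1.354 for Ephb3. Among the ephrins it was -1.7 for Efna2, 1.313 for Efna3, -1.758 for Efnb1 and -1.528 for Efnb2. Among the semaphorins it was 2.027 for Sema3b, 1.833 for Sema3g, 1.439 for Sema4b, -1.868 for Sema4c, -2.361 for Sema5b, -1.846 for Sema6a, -1.217 for Sema6b, -1.259 for Sema6d and -1.339 for Sema7a. Among the plexins it was -2.314 for Plxna3, -1.448 for Plxna4 and -1.328 for Plxnb1. It was -1.611 for Slit2, -1.574 for Robo1, -2.143 for Ntn1, -2.309 for Ntn3, -2.277 for Unc5a and -2.484 for Unc5c. The call of Efna3 was lost without NSC medium day 24 replicate 1, that of Unc5c without NSC medium day 12 replicate 2, and those of Epha2, Ephb2 and Sema3g without any 1 of several libraries.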

How the results depend on the processing

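The clearest dependence was on BKM_Sox2 day 24 replicate 1. With that library kept, 0 members in place of 4 were called in iNSC_BKMF against NSCs, 3 in place of 16 in iNSC_KF against NSCs, 6 in place of 19 in iNSC_KF against iNSC_BKMF, 9 in place of 25 in the BKM_FNV course, 3 in place of 11 in the K_FNV course and 3 in place of 24 in the difference between these courses. After Dox, 19 in place of 30 were then called between BKM_FNV and BKM_Sox17, and 32 in place of 21 between BKM_FNV and BKM_Sox2, 20 of them shared. Only BKM_FNV against BKM_Sox2 after Dox compares the group of that library. In the other comparisons, keeping it left the log2 differences as they were and changed the shared error and the adjusted p. With the compared groups fitted alone, 1 member was called in iNSC_BKMF against NSCs, and it was not 1 of the 4. Fitted likewise, 3 members were called in iNSC_KF against NSCs, 5 in iNSC_KF against iNSC_BKMF and 4 in the K_FNV course. With a pseudocount of 8, 1 was called in iNSC_BKMF against NSCs, and that count was 1 to 5 with 1 library left out. Over these fits Sema3e in that comparison ranged between -6.637 and 0.145, and was the 1 result that changed sign.

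Counting each called member in each comparison, 128 calls were lost and 169 held with the doubted library kept. With the compared groups alone 62 were lost, with a pseudocount of 8 34, with rescaling 12 and without the filter 1. Counted once for each fit that left out 1 library, 204 calls were lost, 1 changed sign and 2851 held. In these fits 17 to 20 members were called in the difference between courses, in place of 24. Same-numbered replicates did not pair: deviations from group means correlated at -0.076 to 0.092. With the replicate block, counts were those of the fit without it (19 for iNSC_KF against iNSC_BKMF, for example), but for 22 in place of 21 in BKM_FNV against BKM_Sox2 after Dox and 23 in place of 24 in the difference between courses. A replicate block with the NSC numbers of the column names, chosen after seeing the data, left 53, 4 and 16 members called in NSCs against MEFs, iNSC_BKMF against NSCs and iNSC_KF against NSCs, all shared with the fit without it. The cause of the shifts under the other alternatives was not tested. Depth is unknown, so detection limits cannot be given.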
